A study of Homo sapiens with 6 samples.

Results

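The chromatin described here surrounds 10 genes of the oxygen-sensing pathway in naive embryonic stem (nES) cells: the hypoxia-inducible factor α-subunits HIF1A, EPAS1 and HIF3A, the prolyl hydroxylases EGLN1, EGLN2 and EGLN3, the asparaginyl hydroxylase HIF1AN, the ubiquitin ligase component VHL, and the target genes VEGFA and CA9. Accessibility was measured by ATAC-seq, where a transposase cuts and tags DNA that is not packed away, so that more reads come from more open sites. A peak was taken as a member where it lay inside or within 30 kb of one of these genes in the GENCODE 44 annotation of hg38. This gave 187 of the 171517 peaks of the deposited count table, and all 10 genes had at least 1 peak.

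The cells were of the established line H9, derived from a human embryo and, according to the paper, chemically reset. They were kept naive in tt2iLGö medium (inhibitors of MEK, GSK3 and protein kinase C with human LIF) in 5% O2 on mouse feeders, which were depleted before seeding on laminin. Of the 6 libraries, 3 came from control cells (called DMSO in the labels, and 0 mM dm-αKG in the protocol) and 3 from cells given 4 mM dimethyl-α-ketoglutarate (dm-αKG), a cell-permeable ester of α-ketoglutarate, for 24 h. All 6 shared the line, medium and oxygen level, so the effect of oxygen itself was not measured, and the results hold for 1 cell line.

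Hypoxia-inducible factors (HIFs) pair an oxygen-regulated α-subunit with the stable partner ARNT and bind hypoxia response elements, whose core reads ACGTG or GCGTG. When oxygen is present, the EGLN enzymes hydroxylate prolines of the α-subunit, which lets VHL mark it for degradation, while HIF1AN hydroxylates an asparagine and blocks the binding of co-activators. Both kinds of enzyme use oxygen and α-ketoglutarate as co-substrates, and EGLN3, VEGFA and CA9 are themselves known targets of HIF. ATAC-seq reports open chromatin and not the activity of these enzymes, the amount of the proteins or the level of a transcript.

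Libraries held between 13025674 and 26828622 counts in peaks, and the scaling factors (edgeR's TMM) lay between 0.9914 and 1.0142. Pearson's r of log counts across peaks was 0.942 to 0.966 within a treatment and 0.911 to 0.928 between treatments. Values are normalized counts, that is counts scaled to the mean library, and a value ± error is a mean ± SD of n = 3 libraries. The study describes the libraries as biological replicates of 1 experiment. In such bulk libraries, a smaller share of open cells and a lower accessibility per cell cannot be told apart. Of 8 naive markers, 7 had a peak at the promoter, among them NANOG, POU5F1 and SUSD2, at the 32.3rd to 94.3rd percentile of promoter peaks by counts per 100 bp. Promoter peaks of 5 trophoblast markers lay between the 24.1st and 79.1st percentile, those of 3 endoderm markers between 19.5 and 48.9, and those of 4 mesoderm and fibroblast markers between 9.99 and 33.8. Of these 19 marker promoters, KLF17 was less accessible with dm-αKG (edgeR log2 fold change -0.39), and SUSD2 (0.33) and GATA6, an endoderm marker (0.31), were more accessible. These 3 stand beside 13.7% of all promoter peaks at an adjusted p below 0.05. At GATA6 the treatments overlapped (edgeR adjusted p = 0.0290), with 259 in dm-αKG replicate 3 and 268 and 270 in control replicates 1 and 2.

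The sequences that follow are those of peaks with large or clear changes in accessibility, with the promoters of EGLN1 and CA9. Capitals mark the core of a hypoxia response element (ACGTG or GCGTG), an AP-1 site (TGANTCA) or an NRF2 site (TGACNNNGC), searched on both strands. Within 200 bp around the peak centre, the core stood in 69 of 187 member peaks (36.9%) and in 32.3% of all peaks. For AP-1 these shares were 6.95% and 6.33%, and for NRF2 they were 10.7% and 9.57%. The core was in 3 of 11 less accessible, 8 of 21 more accessible and 58 of 155 other member peaks. Peaks are written on the plus strand of hg38. The first 2 lie in introns of EPAS1, at chr2:46331867-46332066 and chr2:46364999-46365198.
EPAS1 +34.6 kb: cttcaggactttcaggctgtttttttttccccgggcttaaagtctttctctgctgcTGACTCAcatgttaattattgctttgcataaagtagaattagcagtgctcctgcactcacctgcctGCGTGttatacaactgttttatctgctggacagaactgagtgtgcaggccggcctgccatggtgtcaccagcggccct
EPAS1 +67.7 kb: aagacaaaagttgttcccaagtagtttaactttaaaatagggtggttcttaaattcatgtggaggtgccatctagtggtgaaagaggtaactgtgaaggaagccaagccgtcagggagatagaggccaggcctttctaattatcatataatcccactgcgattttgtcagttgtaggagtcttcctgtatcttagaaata
The next 2 lie in the EGLN3 region, with a peak upstream of its annotated gene at chr14:34491305-34491555 and an intronic peak at chr14:33964871-33965075.
EGLN3 upstream: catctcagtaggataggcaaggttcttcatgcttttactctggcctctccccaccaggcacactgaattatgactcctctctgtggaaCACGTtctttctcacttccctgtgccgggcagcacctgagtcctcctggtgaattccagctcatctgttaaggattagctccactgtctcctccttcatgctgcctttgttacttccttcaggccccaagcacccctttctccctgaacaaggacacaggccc
EGLN3 -13.9 kb: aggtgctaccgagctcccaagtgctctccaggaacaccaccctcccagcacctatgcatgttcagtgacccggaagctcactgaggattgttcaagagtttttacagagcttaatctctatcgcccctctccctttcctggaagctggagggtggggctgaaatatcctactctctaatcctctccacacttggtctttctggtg
The peak downstream of EGLN2 lies at chr19:40810783-40811002.
EGLN2 +11.7 kb: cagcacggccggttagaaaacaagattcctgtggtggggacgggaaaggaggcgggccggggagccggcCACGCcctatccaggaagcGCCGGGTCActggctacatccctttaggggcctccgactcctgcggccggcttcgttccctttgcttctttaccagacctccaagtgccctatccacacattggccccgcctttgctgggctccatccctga
The promoters, from RefSeq on GRCh38.p14, are the 250 bases before the start on the strand of the gene, at chr1:231422288-231422537 for EGLN1 (minus strand) and chr9:35673678-35673927 for CA9 (plus strand). Among 35116 RefSeq promoters of this length, 43.2% held the core and 6.57% an AP-1 site.
EGLN1 promoter: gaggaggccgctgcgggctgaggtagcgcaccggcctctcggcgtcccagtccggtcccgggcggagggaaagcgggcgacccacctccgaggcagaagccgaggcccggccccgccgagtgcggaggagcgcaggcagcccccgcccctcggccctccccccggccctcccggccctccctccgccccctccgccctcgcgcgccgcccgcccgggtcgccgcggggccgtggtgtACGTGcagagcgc
CA9 promoter: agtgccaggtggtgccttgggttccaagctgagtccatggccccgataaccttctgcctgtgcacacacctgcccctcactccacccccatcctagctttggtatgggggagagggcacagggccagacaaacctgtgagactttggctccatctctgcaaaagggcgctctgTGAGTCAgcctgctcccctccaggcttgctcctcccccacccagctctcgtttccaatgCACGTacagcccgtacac
The EPAS1 +34.6 kb peak held 1 AP-1 site and 1 core, and the EPAS1 +67.7 kb and EGLN3 -13.9 kb peaks held none of these letters. The upstream EGLN3 peak held 1 core, and the EGLN2 peak held 1 core and 1 NRF2 site. In the CA9 promoter, 1 core lay close to the start and 1 AP-1 site farther upstream. A match of letters is a description and does not show that a factor was bound.

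Most member peaks did not pass the test for a change under dm-αKG, and those that passed were spread over all 10 genes. At an adjusted p below 0.05 (edgeR's quasi-likelihood test, adjusted by Benjamini-Hochberg over all 171517 peaks), 32 of 187 member peaks passed (17.1%), beside 18% of all peaks. Of these, 11 were less accessible (5.88%, beside 10.5% of all peaks) and 21 more accessible (11.2%, beside 7.43%). The median log2 fold change was 0.12 over the member peaks and 0.01 over all peaks, and the members ranged from -1.06 to 1.45. The thresholds of the paper (adjusted p below 0.01, with a log2 fold change beyond -1 or 1) were also applied to the edgeR fit. There, 1 member peak was less accessible, beside 1.96% of all peaks, and 2 were more accessible, beside 0.782%. Together these 3 made 1.6% of the members, beside 2.74% of all peaks. The paper, with DESeq2, reported fewer changed elements in each direction at these thresholds. Of the member peaks, 133 were in both peak lists of the authors, 31 only in the dm-αKG list and 23 only in the control list. A peak of 1 list entered the table through the treatment that called it, so its change is not independent of that selection. The treatments did not overlap in 63 member peaks (33.7%, beside 32.4% of all peaks), of which 40 were higher with dm-αKG (15.5% of all peaks were) and 23 lower (16.9% of all peaks were). The overall share of called peaks was thus near that of the table, and the plot of all member peaks shows how the calls fell among the genes. EGLN3 had 8 less and 6 more accessible peaks of 68, and EGLN2 had 6 more and 0 less of 17 (1 less at an unadjusted p below 0.05 in edgeR, 0 with DESeq2 and 0 with limma-voom). EPAS1 (7 peaks), VEGFA (19) and CA9 (19) had 2 more accessible peaks each. HIF3A (14) had 1 of each kind, EGLN1 (11) and HIF1AN (12) had 1 more accessible peak, and HIF1A (9) and VHL (11) had 1 less accessible peak.

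**Figure D1:**
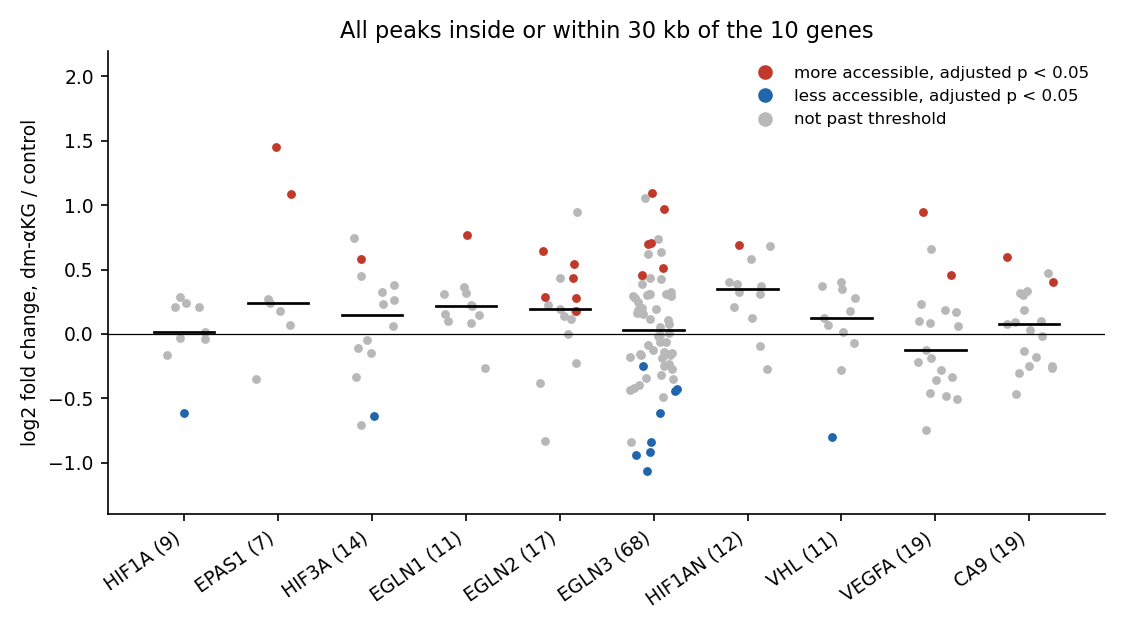
Log2 fold change (dm-αKG over control, vertical axis) of each of the 187 member peaks, by gene with its number of peaks. Red and blue points are more and less accessible at an adjusted p below 0.05, grey points are not past it, and the values span -1.06 to 1.45.

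By place, 5 of 46 peaks within 1 kb of a transcript start of the gene were more accessible and 2 less, as were 7 and 4 of 54 intronic peaks. Of 38 upstream peaks, 3 changed in each direction, and of 48 downstream peaks, 6 were more and 2 less accessible. Of all peaks, 7.43% were more and 10.5% less accessible. Shares over all peaks of the same place were not computed, so these counts are a description only. The nearest protein-coding start belonged to the listed gene for 118 peaks and to another gene for 69. Most peaks were closer to the start of a neighbour at CA9 (17 of 19), HIF1AN (9 of 12), VHL (8 of 11), HIF3A (8 of 14) and EGLN1 (6 of 11), as were 8 of 17 at EGLN2. The median GC content was 52% in the less accessible, 58.5% in the more accessible and 56.5% in the other member peaks, and 51%, 59% and 56% in the same classes of all peaks.

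The promoters of the 10 genes differed in openness by several fold, and none of their main peaks passed the test for a change. The peak nearest the canonical EGLN3 start, which is not its main peak, did pass. The promoter peak was that of highest mean count within 1 kb of any start of the gene, and levels are given in normalized counts per 100 bp over the 6 libraries. HIF1A had the highest level, with a mean of 378 (range 349 to 406), at the 94.8th percentile of 14536 promoter peaks. The EGLN3 promoter peak followed at 282 (260 to 314), but it lies 102 bp from the start of the neighbouring gene SPTSSA, at the far upstream end of the EGLN3 annotation. EPAS1 came next at 219 (197 to 230). In these 3 and in the next, HIF3A, the ranges of neighbours in the order did not overlap. HIF3A had 176 (166 to 194), EGLN1 had 167 (153 to 181) and CA9 had 154 (124 to 167), and these ranges overlapped from one gene to the next. The CA9 value belongs to a peak 1448 bp downstream of the CA9 start and 490 bp from that of ARHGEF39. The remaining levels were 125 (110 to 138) for EGLN2, 105 (85.1 to 117) for VHL, 97.5 (80.6 to 111) for HIF1AN and 84.2 (69.4 to 95.6) for VEGFA, which overlapped with their neighbours in the same way. The median promoter peak had 132 normalized counts per 100 bp, so EGLN2, VHL, HIF1AN and VEGFA lay below it.

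**Figure D2:**
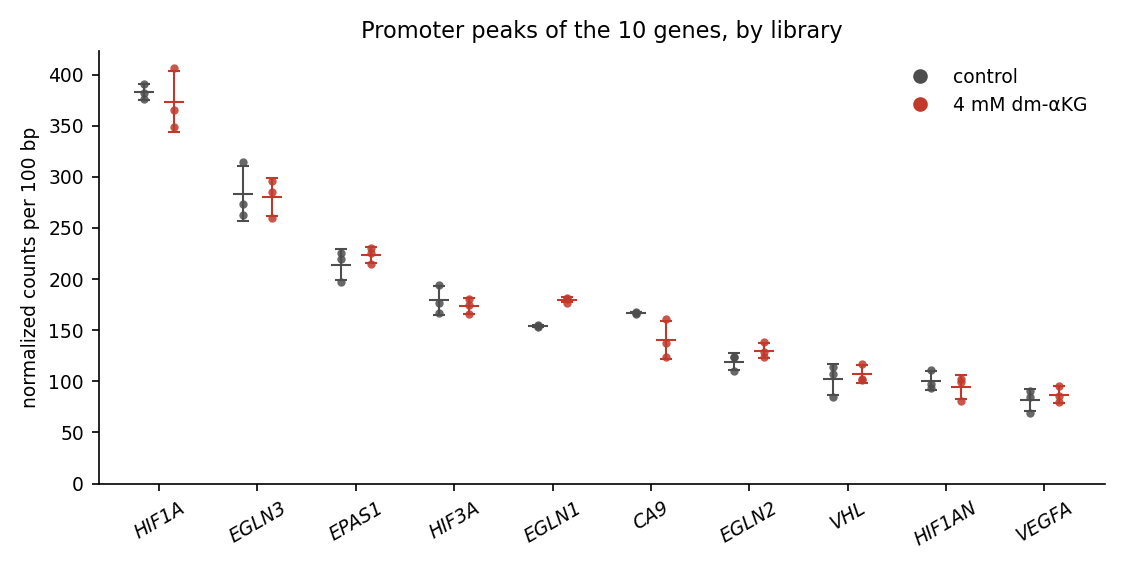
Accessibility of the promoter peak of each gene in normalized counts per 100 bp (vertical axis, from 0), with 1 point per library, controls beside dm-αKG. HIF1A is highest with 349 to 406 and VEGFA lowest with 69.4 to 95.6, and the treatments stay apart at EGLN1 and CA9.

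At these main promoter peaks, 0 of 10 passed an adjusted p below 0.05 in edgeR, beside 13.7% of all promoter peaks (5.12% less and 8.54% more accessible). At an unadjusted p below 0.05, 2 of 10 passed in edgeR, and at an adjusted p below 0.05, DESeq2 called 0 and limma-voom 1. The treatments did not overlap at 2 of the 10, EGLN1 and CA9, beside 29.1% of all promoter peaks. EGLN1 encodes PHD2, regarded as the main HIF prolyl hydroxylase in normal oxygen. Its peak (chr1:231422326-231422557) gave 359, 356 and 360 normalized counts in control and 410, 421 and 419 with dm-αKG. The dm-αKG libraries were all higher, with a log2 fold change of 0.22 (SE 0.09, edgeR adjusted p = 0.0651), which passed the threshold with total counts as library sizes. The CA9-side peak (chr9:35675273-35675478) gave 343, 344 and 345 in control against 283, 331 and 254 (edgeR log2 fold change -0.25, SE 0.10, adjusted p = 0.0599). All dm-αKG libraries were lower, and the difference passed with limma-voom, with a filter of at least 10 counts, and without dm-αKG replicate 2 (-0.34). At the other 8 promoter peaks the treatments overlapped, and log2 fold changes lay between -0.09 for HIF1AN and 0.11 for EGLN2. For EGLN3 this holds for the SPTSSA-side peak. The peak nearest its canonical start was less accessible without overlap (log2 fold change -0.25, edgeR adjusted p = 0.0159), as described below. The smallest p that an exact permutation test can give with 3 libraries against 3 is 0.10, so single peaks were tested with the model fitted over all peaks.

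HIF1A encodes the α-subunit found in most cell types and had 1 less accessible peak of 9. Its gene lies at chr14:61695513-61748259 on the plus strand, and its summed normalized counts over 9 peaks were 2075, 2069 and 2036 in control and 2021, 2127 and 2061 with dm-αKG. These overlapped. The promoter peak (chr14:61695193-61695394) had 759, 789 and 773 in control and 737, 821 and 705 with dm-αKG, again overlapping, with a log2 fold change of -0.04 (SE 0.07). The 1 peak that passed lies 22026 bp upstream of the start (chr14:61673374-61673599), with 65.3, 63.3 and 64.4 in control and 42.3, 52.6 and 29.9 with dm-αKG. It was lower in every dm-αKG library, with an edgeR log2 fold change of -0.61 (SE 0.23, adjusted p = 0.0465). It stayed near the threshold and did not pass with DESeq2, with total counts as library sizes, or in 5 of the 6 fits that left out 1 library, in which the change lay between -0.78 and -0.46.

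EPAS1 encodes HIF-2α, the α-subunit known from endothelium, kidney and early embryos, and it held the highest fold change among the member peaks. The gene lies at chr2:46293667-46386697 on the plus strand. Its promoter peak (chr2:46297098-46297308) gave 477, 415 and 463 in control and 486, 453 and 476 with dm-αKG, which overlapped (log2 fold change 0.07, SE 0.08). In the intron peak 34.6 kb downstream of the start, the first sequence printed above, control libraries had 32.2, 36.2 and 34.0 and dm-αKG libraries had 58.1, 92.4 and 71.8. The lowest dm-αKG value was well above the highest control, and the mean rose from 34.1 ± 1.99 to 74.1 ± 17.2 (n = 3 each). The edgeR log2 fold change was 1.09 (SE 0.23, adjusted p = 2.53e-04). Without dm-αKG replicate 2, the highest library, the change was 0.90 and still passed 0.05. The authors' pipeline had called this site only in the dm-αKG list, so it entered the table through the treatment in which it was high.

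The second EPAS1 intron peak, 67.7 kb downstream of the start, had low counts and was also called only in the dm-αKG list. Control libraries gave 13.4, 2.47 and 13.4 and dm-αKG libraries 22.9, 25.7 and 29.9. The groups did not overlap, and control replicate 2 was far below the other controls. This peak had the highest fold change among the members, at a log2 value of 1.45 (SE 0.42, edgeR adjusted p = 0.00802). Without control replicate 2 it was 0.94 and did not pass. The remaining 5 EPAS1 peaks lie within 1 kb of a start and had log2 fold changes between -0.35 and 0.27. Summed over its 7 peaks, EPAS1 gave 953, 847 and 884 in control and 997, 1049 and 1030 with dm-αKG, which did not overlap. Such sums did not overlap and were higher with dm-αKG in 27.3% of 19324 protein-coding genes, and lower in 17.2%.

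HIF3A encodes an α-subunit whose short forms can restrain the other HIFs, and its 14 peaks moved both ways. The gene lies at chr19:46297042-46343433 on the plus strand. The promoter peak (chr19:46296840-46297048) gave 406, 368 and 349 in control and 365, 346 and 377 with dm-αKG, with overlap (log2 fold change -0.05, SE 0.09). Past the 3′ end of the gene, a peak at chr19:46350530-46350737 had 149, 178 and 158 in control and 98.2, 114 and 102 with dm-αKG. It was lower in all dm-αKG libraries (edgeR log2 fold change -0.64, SE 0.15, adjusted p = 6.65e-04). That peak lies 3526 bp from the nearest start of PPP5C, a protein phosphatase gene, so it cannot be assigned to HIF3A by position. A peak 7.29 kb into HIF3A, 483 bp from an internal start (chr19:46304230-46304434), was the other to pass and was named after its values were seen. Its values were 51.0, 80.6 and 38.9 in control and 97.5, 91.1 and 67.4 with dm-αKG, which overlapped (edgeR log2 fold change 0.58, SE 0.20, adjusted p = 0.0336). It did not pass with DESeq2 or without control replicates 1 or 3 or dm-αKG replicates 1 or 2, with 0.40 as the lowest change.

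Among the prolyl hydroxylases, EGLN1 was more accessible at 1 peak and EGLN2 at 6 peaks, and EGLN3 gained and lost accessibility at different sites. EGLN1 lies at chr1:231363751-231422287 on the minus strand. Summed over 11 peaks, counts were 1335, 1258 and 1271 in control and 1477, 1524 and 1383 with dm-αKG, without overlap, but 6 of these peaks were closer to the starts of SPRTN and EXOC8. Higher sums without overlap occurred in 27.3% of protein-coding genes. The peak that passed lies 1043 bp into the gene (chr1:231421144-231421343) and was called only in the dm-αKG list. It gave 27.7, 27.9 and 37.7 in control and 56.7, 71.8 and 25.4 with dm-αKG. The third dm-αKG library was the lowest of all 6, so the treatments overlapped, and the edgeR log2 fold change was 0.77 (SE 0.27, adjusted p = 0.0315). The call was lost with DESeq2 and without control replicates 1 or 2 or dm-αKG replicates 1 or 2, with 0.51 as the lowest change.

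EGLN2, which encodes PHD1, lies at chr19:40798996-40808434 on the plus strand, and all of its 6 changed peaks were more accessible. Its summed counts over 17 peaks were 4290, 4438 and 4352 in control and 5013, 5126 and 4868 with dm-αKG, which did not overlap. However, 8 of these peaks were closer to the starts of RAB4B and CYP2A6, and 27.3% of protein-coding genes had higher sums without overlap. The promoter peak (chr19:40798724-40799117) gave 489, 489 and 432 against 487, 544 and 507, which did overlap (log2 fold change 0.11, SE 0.08). The clearest gain was at the peak 11.7 kb downstream of the start, printed above. It had 288, 301 and 260 in control and 404, 407 and 329 with dm-αKG, all higher than the controls, and the edgeR log2 fold change was 0.43 (SE 0.09, adjusted p = 3.78e-04). The adjoining peak (chr19:40811033-40811236), had 364, 337 and 355 in control and 434, 426 and 424 with dm-αKG (log2 fold change 0.28, edgeR adjusted p = 0.0122). It did not pass without control replicate 2 (0.26) or dm-αKG replicate 1 (0.28). Another peak of this side (chr19:40818708-40818908) rose from 94.4 ± 3.69 to 138 ± 1.87 (n = 3 each, log2 fold change 0.54, edgeR adjusted p = 0.00699).

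Of the other changed EGLN2 peaks, 1 lies 534 bp into the gene and 2 near the start of RAB4B, a small GTPase gene upstream. The peak 534 bp into EGLN2 (chr19:40799625-40799824) had 59.0, 82.2 and 77.7 in control and 124, 121 and 92.8 with dm-αKG. All dm-αKG libraries were higher (log2 fold change 0.65, edgeR adjusted p = 0.00466), and the call was lost without control replicate 1 (0.51) or dm-αKG replicate 1 (0.56). The RAB4B-side peaks lie 681 bp and 246 bp from its start and changed by 0.28 and 0.18, with edgeR adjusted p-values of 0.00550 and 0.0496. The first was lost without control replicate 1 (0.21), and the second stayed near the threshold and was lost with DESeq2, with a filter of at least 10 counts, and without any 1 of the 6 libraries (0.14 to 0.21). Other than the promoter peak and the peak 11.7 kb downstream of the start, the EGLN2 peaks were named after their values were seen.

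EGLN3 encodes PHD3, a prolyl hydroxylase that HIF itself induces, and it held 68 of the 187 member peaks and 14 of the 32 that passed. The annotated gene spans 538548 bp (chr14:33924227-34462774, minus strand), because some of its 11 transcripts start far upstream, next to SPTSSA. The canonical transcript, which GENCODE marks as representative, starts at position 33951074, and only 15 of the 68 peaks lay inside it or within 30 kb of it. At the canonical start (chr14:33951040-33951250), a peak chosen because it was nearest to that start had 503, 545 and 556 in control and 454, 448 and 440 with dm-αKG. All dm-αKG libraries were lower, with an edgeR log2 fold change of -0.25 (SE 0.08, adjusted p = 0.0159), and the call was lost without control replicate 2 or 3 (-0.23 each). At the SPTSSA-side start (chr14:34462242-34462441), libraries overlapped, with 629, 547 and 526 in control against 570, 591 and 519.

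Upstream of the canonical start, 2 further EGLN3 peaks lost accessibility. The peak at -13.9 kb, printed above, gave 606, 608 and 641 in control and 455, 458 and 451 with dm-αKG. Its mean fell from 619 ± 19.7 to 455 ± 3.77 (n = 3 each), without overlap, and the edgeR log2 fold change was -0.44 (SE 0.08, adjusted p = 6.12e-06). The peak at -8.96 kb (chr14:33959925-33960142) gave 130, 137 and 152 in control and 90.4, 74.4 and 109 with dm-αKG. It was also lower in all 3 dm-αKG libraries (edgeR log2 fold change -0.62, SE 0.16, adjusted p = 0.00284). These 3 losses lie at the canonical start and within 13.9 kb upstream of it. The 2 peaks between them that did not pass had log2 fold changes of -0.16 each. At +549 bp (chr14:33950320-33950730), a peak named after its values were seen went the other way and did not pass. It gave 127, 107 and 88.7 in control and 140, 137 and 123 with dm-αKG, with overlap (log2 fold change 0.31, edgeR adjusted p = 0.158).

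Farther upstream, inside the long transcripts, changes went both ways. A peak at -154 kb from the canonical start (chr14:34105046-34105248) had 99.3, 104 and 109 in control and 161, 172 and 178 with dm-αKG. The dm-αKG libraries were all higher, with an edgeR log2 fold change of 0.70 (SE 0.14, adjusted p = 1.35e-04). A peak at -273 kb, 973 bp from an alternative EGLN3 start (chr14:34223818-34224033), went the other way, from 109, 109 and 94.7 to 52.3, 56.4 and 58.4. Every dm-αKG library was well below every control (edgeR log2 fold change -0.92, SE 0.19, adjusted p = 1.12e-04). A peak 484 bp from the SPTSSA start (chr14:34461656-34461855) had 68.9, 67.4 and 60.7 in control and 105, 113 and 105 with dm-αKG, all higher (edgeR log2 fold change 0.70, SE 0.18, adjusted p = 0.00217). It was called only in the dm-αKG list.

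The lowest log2 fold change among the members lay upstream of the annotated EGLN3 gene, at the peak printed above. There, controls had 76.9, 88.8 and 87.5 and dm-αKG libraries 33.7, 32.1 and 59.9. The third dm-αKG library was higher than the other two but below all controls, and the change was -1.06 (SE 0.22, edgeR adjusted p = 1.35e-04). Without dm-αKG replicate 1 or 2 it fell by 0.89 or 0.94 on the log2 scale, short of the limit of 1. The peak lies 28.7 kb from the far EGLN3 start and 29.2 kb from the start of SPTSSA, so position does not favour either gene. Of the 14 EGLN3 calls, 7 held in all alternative fits. The peak at the canonical start and 6 others, with log2 fold changes between -0.94 and 1.09, lost the call in at least 1. Summed over all 68 peaks, EGLN3 gave 7072, 7154 and 7095 in control and 6739, 6723 and 7030 with dm-αKG, slightly lower without overlap. Lower sums without overlap occurred in 17.2% of protein-coding genes.

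**Figure D3:**
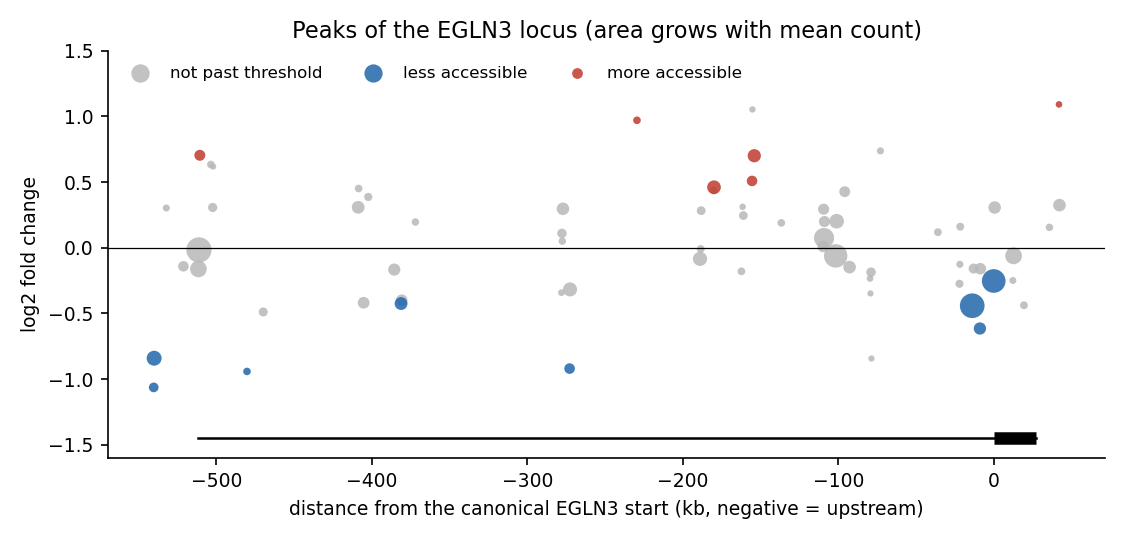
Log2 fold change (vertical axis) of the 68 EGLN3 peaks against their distance from the canonical start in kb (negative is upstream), with area growing with the mean count. Losses of -0.25 to -0.62 stand close to the canonical start, and the upstream peak at -1.06 stands near the far left end, beyond the SPTSSA-side start.

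HIF1AN encodes factor inhibiting HIF (FIH), the asparaginyl hydroxylase. Its gene lies at chr10:100529072-100559998 on the plus strand. The promoter peak (chr10:100535703-100535912) gave 197, 233 and 205 in control and 214, 169 and 210 with dm-αKG, with overlap (log2 fold change -0.09, SE 0.12). The peak that passed (chr10:100519348-100519552) lies at -16.5 kb from the HIF1AN start and 385 bp from the start of SEC31B, a vesicle coat gene. It gave 98.4, 94.5 and 102 in control and 130, 163 and 193 with dm-αKG. All dm-αKG libraries were higher, and the edgeR log2 fold change was 0.69 (SE 0.15, adjusted p = 4.15e-04). Summed over 12 peaks, values were 826, 894 and 824 in control and 978, 1093 and 1000 with dm-αKG, without overlap, although 9 of these peaks were closer to the starts of SEC31B and NDUFB8. Higher sums without overlap occurred in 27.3% of protein-coding genes.

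VHL, the substrate-binding component of the ligase that recognises hydroxylated HIF, had 1 changed peak of 11. The gene lies at chr3:10141778-10153667 on the plus strand, and its promoter peak (chr3:10141622-10141828) had 176, 221 and 237 in control and 212, 210 and 242 with dm-αKG. These overlapped (log2 fold change 0.06, SE 0.12). Its 1 changed peak (chr3:10164528-10164727) lies 291 bp from the start of IRAK2, a kinase of innate immune signalling, and had 45.6, 50.1 and 48.6 in control and 36.6, 15.4 and 26.9 with dm-αKG. It was lower in all dm-αKG libraries (edgeR log2 fold change -0.80, SE 0.27, adjusted p = 0.0280) and was called only in the control list. The call was lost with DESeq2 and without any 1 of the controls or dm-αKG replicate 2, and without the latter the change was -0.55.

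VEGFA encodes the vascular growth factor that is a classical HIF target. The gene lies at chr6:43770184-43786487 on the plus strand. The main promoter peak (chr6:43769792-43770176) had 326, 349 and 267 in control and 331, 368 and 305 with dm-αKG, which overlapped (log2 fold change 0.08, SE 0.10). Downstream of the start, at +546 bp (chr6:43770657-43770856), values were 30.4, 41.1 and 51.0 in control and 90.4, 85.9 and 50.9 with dm-αKG. Of the dm-αKG libraries 2 were well above all controls and the other stood level with the highest control, and the edgeR log2 fold change was 0.95 (SE 0.22, adjusted p = 0.0010). The call held in all alternative fits, with a change between 0.78 and 1.14 when 1 library was left out, but the peak was in the dm-αKG list only. At +848 bp (chr6:43770959-43771158), named after its values were seen, the 79.6, 76.4 and 86.2 of the controls stood below the 123, 98.8 and 105 of dm-αKG (log2 fold change 0.45, edgeR adjusted p = 0.0490). That call was near the threshold and was lost in 8 of 12 alternative fits, among them the fits without any 1 of the controls or without dm-αKG replicate 1 (0.34) or 2 (0.52). None of the 14 VEGFA peaks more than 1 kb from a start passed the test, and their log2 fold changes lay between -0.75 and 0.66.

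CA9 encodes carbonic anhydrase IX, whose transcript is a common marker of hypoxia, and its own start was in no called peak. The gene lies at chr9:35673928-35681159 on the plus strand. The start was inside no peak in either the control or the dm-αKG list of the authors, and the closest peak edge was 1250 bp away, whereas the canonical starts of the other 9 genes were inside a peak in both lists. The CA9 promoter printed above thus lies outside all peaks of the table, and no counts were given for it. Of 19 peaks near CA9, 2 passed, both downstream of the gene. The peak 1146 bp from a start of TPM2, a tropomyosin gene (chr9:35691099-35691304), had 65.3, 92.9 and 70.5 in control and 118, 110 and 121 with dm-αKG. All dm-αKG libraries were higher (edgeR log2 fold change 0.60, SE 0.17, adjusted p = 0.00763), and without control replicate 1 the change was 0.50 and did not pass. The other, 2585 bp from a start of TLN1, was named after its values were seen and changed by 0.40 (edgeR adjusted p = 0.0413). It was lost with DESeq2 and without control replicates 2 (0.32) or 3 (0.38) or dm-αKG replicates 1 (0.42) or 2 (0.37).

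**Figure D4:**
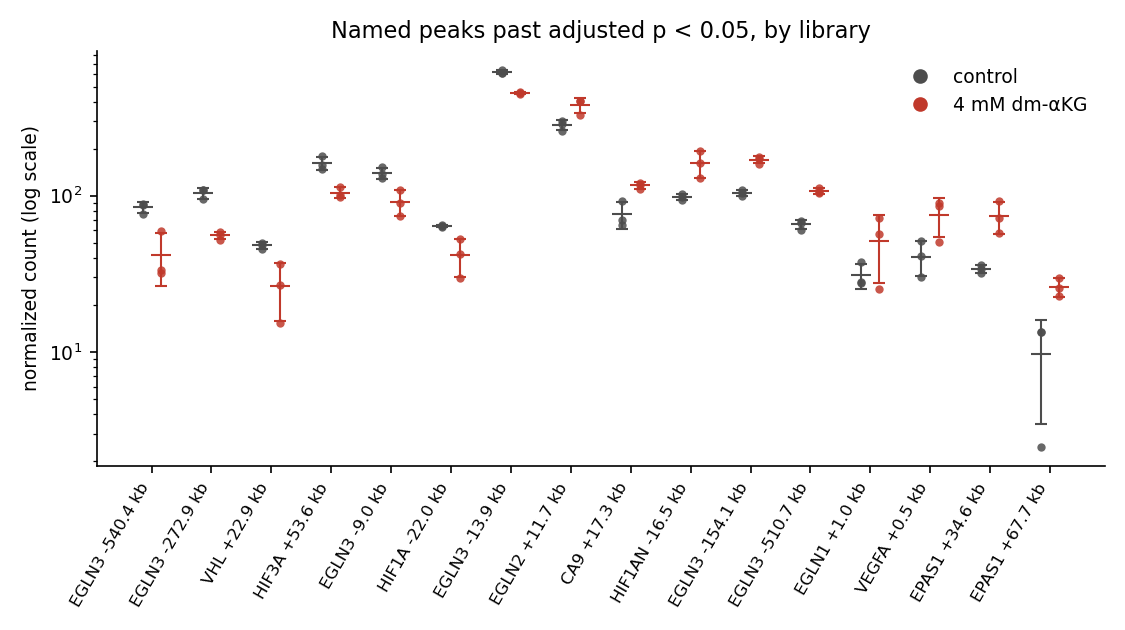
Normalized count (log scale) in each of the 6 libraries of peaks that passed an adjusted p below 0.05. Shown are those selected by the naming rule given under processing, labelled by gene and distance from its canonical start. Peaks named outside that rule are not shown. Treatments stay apart at all of these peaks except EGLN1 +1.0 kb and VEGFA +0.5 kb, where the lowest dm-αKG library reaches the controls.

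Just inside the genes, most log2 fold changes were above 0. Peaks centred 200 to 1000 bp downstream of a canonical start, a class chosen after the values were seen, numbered 12 in 8 of the listed genes. Of these 11 had a log2 fold change above 0 and 1, in HIF3A, had -0.11, with a median of 0.26. Those that passed were the peak 534 bp into EGLN2 and both VEGFA peaks described above, so 3 were more and 0 less accessible in edgeR (also 0 less at an unadjusted p below 0.05, with DESeq2 and with limma-voom). All 3 were called only in the dm-αKG list of the authors. They entered the table through the treatment in which they were high, so these gains are not independent of that selection. Among 14929 such peaks of all protein-coding genes, 76.4% had a log2 fold change above 0 with a median of 0.20, and 17% passed an adjusted p below 0.05 in edgeR, 15.6% as more and 1.39% as less accessible. The direction at the listed genes was therefore also that of starts in general. At the main promoter peaks of all genes the median log2 fold change was 0.05.

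**Figure D5:**
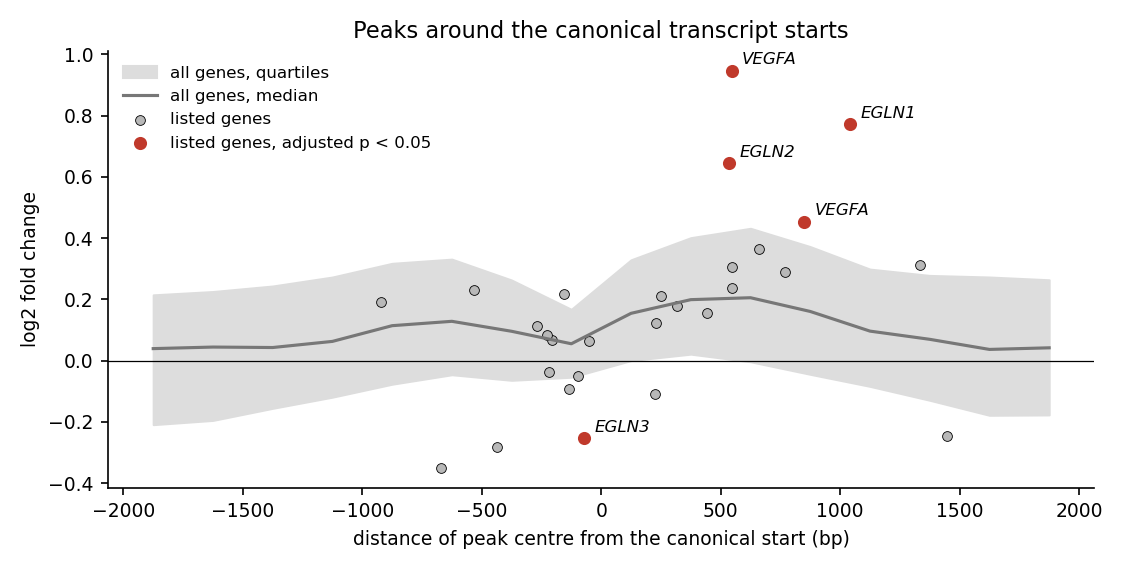
Log2 fold change (vertical axis) of peaks by the distance of their centre from the canonical start in bp, with the median and quartiles of all protein-coding genes in 250 bp bins (grey) and the peaks of the listed genes as points. The median of all genes is highest between 250 and 750 bp downstream, at 0.20 to 0.21, and red points mark listed peaks past an adjusted p below 0.05.

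The wider pathway was read from a list of 56 genes, each with 1 promoter peak. This was again the peak of highest mean count within 1 kb of any start of the gene. Distances from the canonical starts were not computed for this list, so such a peak can lie far from the main promoter, as at EGLN3. Of the 56 promoter peaks, 5 were less and 9 more accessible (25% together, beside 13.7% of all promoter peaks), with a median log2 fold change of 0.06. The list was chosen with earlier results of these data known, so the difference between these shares was not tested. Of the 14 calls, 9 held in all alternative fits. Among 21 genes of glucose and oxygen metabolism, 3 were less and 5 more accessible (38.1% together). ENO2, which encodes the neuronal form of the glycolytic enzyme enolase, had 390, 428 and 430 normalized counts in control and 258, 264 and 253 with dm-αKG (edgeR log2 fold change -0.68, adjusted p = 1.08e-08). SLC2A3 encodes the glucose transporter GLUT3, and its peak (chr12:8018892-8019249) had 676, 669 and 723 against 474, 480 and 504 (-0.51, edgeR adjusted p = 1.49e-07). In both, every dm-αKG library was below every control.

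Genes with related roles went the other way. SLC16A3, which encodes the lactate exporter MCT4, had 123, 131 and 147 in control and 220, 228 and 228 with dm-αKG (edgeR log2 fold change 0.76, adjusted p = 2.30e-06), and SLC2A1, which encodes the glucose transporter GLUT1, changed by 0.34 (edgeR adjusted p = 0.00111). LDHA, which encodes lactate dehydrogenase A, fell by 0.41 on the log2 scale, while the promoter peaks of ENO1, ALDOA and ALDOC, of glycolysis, rose by 0.35, 0.26 and 0.33. The ENO1 and ALDOA calls were lost without control replicate 3 (0.26 and 0.20) or dm-αKG replicate 2 (0.31 and 0.19). The promoter peaks of HK1, HK2, GPI, PFKL, TPI1, GAPDH, PGK1, PGAM1 and PKM, of the same pathway, did not pass.

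Among 24 other targets, 2 were less and 2 more accessible (16.7% together, near the 13.7% of all promoter peaks). FLT1 and KDR, which encode receptors of VEGFA, had log2 fold changes of -0.30 and -0.39, with the treatments apart in both (edgeR adjusted p = 0.00171 and 0.00387). The FLT1 peak lies at chr13:28308353-28308552, near a start of any FLT1 transcript, and its distance from the canonical start was not computed. ANGPTL4, an inhibitor of lipoprotein lipase, had 80.5, 93.7 and 93.5 in control and 146, 139 and 153 with dm-αKG (edgeR log2 fold change 0.71, adjusted p = 3.56e-04). Of 11 HIF partners and components of the VHL ligase, 0 were less and 2 more accessible (18.2% together). Of all promoter peaks, 5.12% were less and 8.54% more accessible, so a count of 0 among 11 is not particular to these genes. None was less accessible at an unadjusted p below 0.05 in edgeR, with DESeq2 or with limma-voom either. RBX1, the RING subunit of the ligase, changed by 0.22 (edgeR adjusted p = 0.0347). The call was lost with DESeq2 and without control replicates 1 or 3 or dm-αKG replicates 1 or 2 (0.18 to 0.23). The other, the co-activator gene EP300, changed by 0.20 (edgeR adjusted p = 0.0440) and was lost in the same settings (0.15 to 0.21), and the transcriptional repressor gene BHLHE40 among the other targets changed by 0.19 (edgeR adjusted p = 0.0438). BHLHE40 was lost with DESeq2, with the filter of at least 10 counts and without any 1 library except dm-αKG replicate 1 (0.16 to 0.21). Both were named after their values were seen. ARNT, the partner of all α-subunits, had a log2 fold change of 0.02 (SE 0.08) and overlapping treatments.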

How the data were processed

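ATAC-seq libraries of H9 nES cells were analysed, 3 controls and 3 given dm-αKG (4 mM, 24 h), grouped by the treatment in the labels. Read pairs had been trimmed and aligned by the authors with Bowtie 2 (hg38), and MACS2 peaks that were reproducible among the replicates of a treatment were trimmed to 200 bp at their summits before the 2 lists were joined. The authors deposited raw counts of reads per merged peak and library, without normalization, and 1 peak list per treatment. In those lists, the deposited score, fold enrichment ratio and −log10 q-value of each peak were used for no result here, and the lists served to say where a peak was called. Per the labels, bcl2fastq 2.20.0.422, cutadapt, Picard and bedtools 2.28.0 were also used.

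All 171517 peaks entered the test without a filter, in edgeR 4.0.16 under R 4.3.3 (TMM scaling, quasi-likelihood fit, treatment as the only term), and p-values were adjusted by Benjamini-Hochberg over all peaks. Standard errors come from the ratio of the log2 fold change to the root of its F statistic. Of the 187 member peaks, 171 had at least 10 counts in every library. Replicate pairs differed by more than counting noise (chi-square per degree of freedom 1.80 to 2.16). Sites, transcript starts and gene spans came from GENCODE 44, promoter sequences from RefSeq (8 of 10 genes matched), and motifs were searched in Python 3.11.15. The study used DESeq2, which was run here as an alternative (1.42.0), beside limma 3.58.1, scaling by RLE and by total counts, a filter of at least 10 counts, a replicate block, narrower windows and leaving out each library. DESeq2 gave no adjusted p for 6652 peaks, 7 of them members. The genes, lists and rules were chosen with earlier results of these data known. Named peaks were each gene's promoter peak and its peak of smallest adjusted p, the 12 members of smallest adjusted p, and those past both thresholds of the study, and of the pathway list at most 12 genes that passed. One peak that this rule names is not reported here. Peaks and classes named outside this rule are marked as chosen after their values were seen. Precision rests on 3 libraries per treatment, and reads carried no molecular identifiers.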

Additional observations from a re-analysis of the deposited data

How the results depend on the processing

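At an adjusted p below 0.05, the members counted 11 less and 21 more accessible peaks. With DESeq2 they were 7 and 13. Leaving out 1 library gave 7 to 13 less accessible (7 without control replicate 2) and 12 to 19 more accessible peaks (12 without control replicate 1 or dm-αKG replicate 1). Peaks inside the gene only gave 6 and 12, and those within 10 kb gave 7 less. With EGLN3 taken as its canonical transcript, an alternative chosen after seeing the data, 6 were less accessible. At the stricter thresholds of the study (1 less and 2 more), the less accessible count was 0 without dm-αKG replicate 1 or 2, inside the gene only, within 10 kb and with the canonical EGLN3, so it ranged from 0 to 1 over left-out libraries. The more accessible count was 1 with DESeq2 and with the filter of at least 10 counts, and ranged from 0 (without dm-αKG replicate 2) to 4 (without dm-αKG replicate 3), with 1 without dm-αKG replicate 1. The pathway promoters counted 4 to 10 more accessible (4 without control replicate 3 or dm-αKG replicate 2). The causes were not tested.

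Of the 32 member calls, 13 held in all alternative fits, as did 9 of 14 pathway calls, and 0 of either turned direction in any. Direction turned only in promoter peaks that had not passed, over left-out libraries: EGLN3 at the SPTSSA-side start from -0.063 to 0.070 (0.027 without dm-αKG replicate 3), HIF1A from -0.099 to 0.0020, HIF1AN from -0.17 to 0.0012, HIF3A from -0.093 to 0.019, VEGFA from -0.0082 to 0.17 and VHL from -0.048 to 0.14. Same-numbered libraries did not deviate together (correlations of -0.02, -0.00090 and 0.01), which does not show whether they were handled together. The replicate block gave 11 less and 19 more accessible members. The peak of lowest depth named, EPAS1 +67.7 kb, had 2.47 normalized counts in 1 control, and its change is imprecise.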
